A study of Mus musculus with 18 samples.

Results

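The comparison described here is the early response of the mouse embryonic stem (ES) cell line PL2F8 to the loss of leukaemia inhibitory factor (LIF), a cytokine of the interleukin-6 family. It set the 2 arrays of PL2F8 at day 2 after LIF withdrawal against the 2 arrays of PL2F8 at day 0, chosen by line and day as the labels give them, which are 4 of the 18 arrays of the series, and it covered all 16085 genes that could be tested. The series also followed a further mouse ES line, AB2.2, and later days (4, 6 and 8) of both lines on Illumina mouse bead arrays hybridized with biotin-labelled total RNA. The 4 AB2.2 arrays of days 0 and 2, which cover the same days of withdrawal, served as the most similar comparison. Sample titles do not say whether both lines were withdrawn from LIF in the same experiment. The labels give no genotype or modification for either line beyond its name, no culture medium, and no statement on feeder cells.

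The labels number 2 replicates for each line and day without saying that they were grown as separate cultures, so each p-value refers to the variation among these arrays alone, and that variation may be technical. The number of arrays limits the precision. The 4 PL2F8 arrays were alike in brightness, with mean signals of 331.9 to 396.1 and 43% to 43.9% of probes above background, and replicates correlated across genes at 0.9976 on day 0 and 0.9971 on day 2. The PL2F8 arrays of days 6 and 8 stood apart as dim (mean signals of 60.1 to 137.4). They entered the normalization, the probe filter, the choice of each gene's probe and the pooled estimate of the spread, but no mean compared here. The cells carried the transcripts of ES cells on both days: Pou5f1, the POU factor that defines pluripotent cells, had log2 signals of 12.26 and 12.50 at day 0 and 12.43 and 12.34 at day 2, and Sox2, Nanog, Zfp42, Esrrb, Utf1 and Dppa4 were above background on all 4 arrays.

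LIF binds a receptor made of Lifr and the shared chain gp130 (Il6st), and Janus kinases attached to it phosphorylate STAT3, which enters the nucleus and switches on transcription factors of the naive state such as Klf4 and Tfcp2l1. In mouse ES cells this arm opposes the FGF and ERK signal that carries cells towards the postimplantation epiblast. Cells that leave the naive state first pass through a formative stage that resembles the epiblast soon after implantation, before any germ layer is chosen.

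The shift from day 0 to day 2 was broad. In PL2F8 5869 of 16085 genes (36.5%) changed at an adjusted p below 0.05 in limma, of which 2815 rose (17.5%) and 3054 fell (19%). Among these calls, 27 genes were above background on none of the 4 arrays. A further 312 rises and 384 falls had both arrays of the lower day at background. Changes of at least 2-fold were called for 811 genes (5.04%), with 403 rises (2.51%) and 408 falls (2.54%), and 47 rises (0.292%) and 46 falls (0.286%) reached 4-fold. With median scaling in place of quantile normalization the median over all genes moved from 0.00 to -0.12 on the log2 scale, and 1777 genes rose and 4782 fell, so the balance between small rises and small falls depended on that choice. The 811 genes that moved by at least 2-fold were all called in the same direction with median scaling. The arrays of both days did not overlap for 70.8% of all genes, so a lack of overlap was usual. Among genes ranked by their change it follows from the ranking. With 2 arrays against 2 an exact permutation test of a single gene could not give a two-sided p under 0.333, so the tests rest on the spread pooled over all groups. Each gene is represented by its brightest probe, and of the 2171 called genes with further probes 424 had another probe whose change was of the opposite sign.

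The highest rise belonged to Lefty1, a secreted antagonist of Nodal, with log2 signals of 6.60 and 6.60 at day 0 and 11.39 and 11.52 at day 2, a change of 4.86 ± 0.08 (standard error of the model, n = 2 arrays on each day, limma adjusted p = 2.31e-12). Fgf5, a growth factor that marks the epiblast after implantation, was not above background at day 0 and reached 8.66 and 8.50 at day 2, at least 14.5-fold higher (adjusted p = 1.52e-09). Pou3f1 (Oct6), a POU factor of the primed epiblast and later neural cells, went from 5.98 and 6.06 to 9.78 and 9.75, a change of 3.74 ± 0.11. The arrays of each day lay close together for these genes. All their day 2 values stood above all day 0 values, which follows from ranking genes by this change. The days did not overlap for 70.8% of all genes. Lefty2, a sister gene of Lefty1, rose by 3.46 ± 0.13, Fgf15, the mouse counterpart of FGF19, by 3.18 ± 0.13, and Car4, a membrane carbonic anhydrase, by 3.14 ± 0.10. Vrtn, which governs vertebral number in pigs, was at least 8.39-fold higher, and Enpp2, the autotaxin that makes lysophosphatidic acid, at least 7.45-fold higher, although its other probe gave a change of 0.74. The remaining genes among the 12 highest were 2610528J11Rik (3.16), Rab26os (3.04), Tmem54 (3.01, above background on 1 of the 2 day 0 arrays) and a probe of the major urinary protein family assigned to Mup6 (3.23), whose near-identical relatives make the assignment uncertain.

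The deepest fall was that of Fos, the AP-1 subunit induced within minutes of growth factor signals, from 11.84 and 11.87 at day 0 to 6.06 and 5.77 at day 2, a change of -5.94 ± 0.10 (adjusted p = 2.31e-12). Egr1, a zinc finger immediate early factor, fell by 4.88 ± 0.09 on the log2 scale, from 13.50 and 13.46 to 8.73 and 8.48. Socs3, the inhibitor that STAT3 induces to shut down its own receptor, went from 11.15 and 11.27 to 7.08 and 6.90, a change of -4.22 ± 0.10. None of these 3 genes overlapped between days, which follows from ranking genes by this change and held for 70.8% of all genes. Acta2, smooth muscle actin, Egr2, a relative of Egr1, and Ccn1, a matricellular protein and target of YAP and serum response factor, sank to background on both day 2 arrays, and were at least 14-fold lower, at least 10.1-fold lower and at least 7.54-fold lower. The other Acta2 probes gave changes from -1.79 to -1.39 and the other Ccn1 probes -2.47 and -1.49. The microtubule protein gene Mapt fell by 3.38 ± 0.11, with other probes between -2.01 and -0.13, and S100a6, a calcium-binding protein, by 2.90 ± 0.10. Htra1, a secreted serine protease, Ddah1, which degrades methylarginines, Igfbp7, a secreted binding protein, and Junb, an AP-1 subunit, changed by -2.78, -2.75, -2.71 and -2.71.

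**Figure D1:**
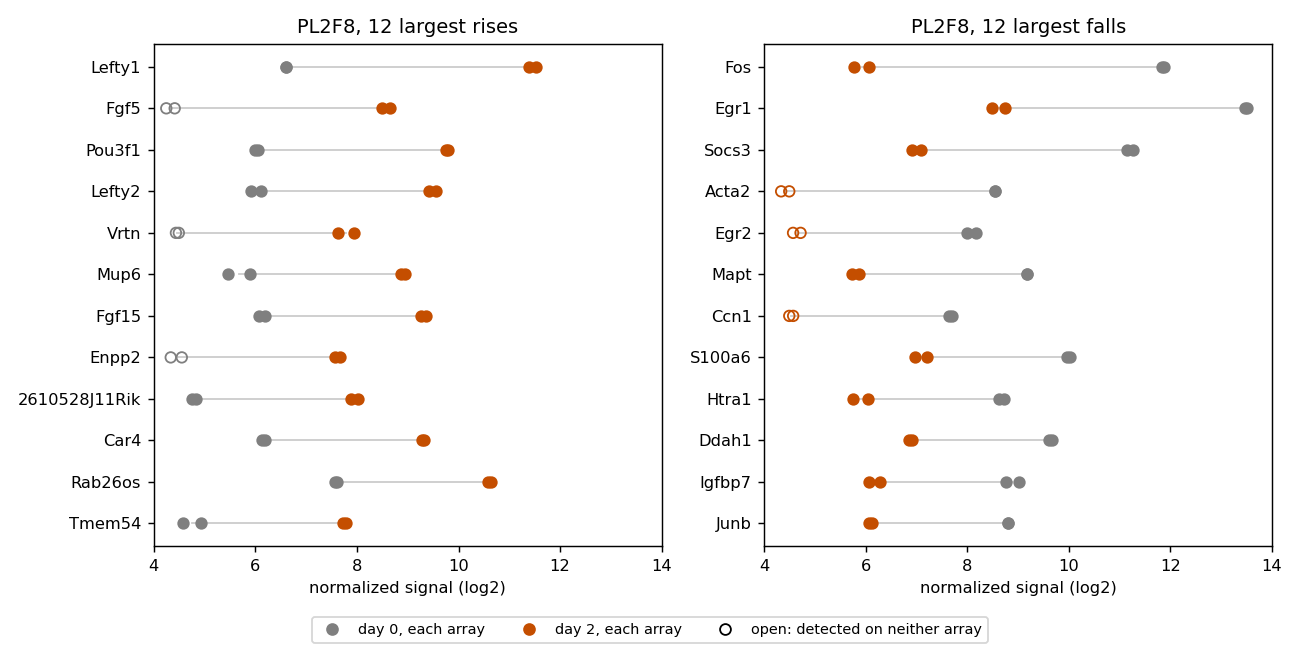
Normalized log2 signal (horizontal axis) of the 12 genes with the largest called rises and the 12 with the largest called falls in PL2F8 from day 0 (grey) to day 2 (orange), each circle 1 array and the line joining the 2 group means. Open circles mark a day on which neither array was above background. The pair of arrays of each day lie close together. For every gene shown both day 2 arrays lie on the same side of both day 0 arrays, from Lefty1 (4.86) to Fos (-5.94). This follows from choosing the largest called changes, and the days did not overlap for 70.8% of all genes.

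Transcripts of the LIF pathway fell more often than they rose, among receptor and JAK-STAT3 genes and, with a lower median, among the listed targets. Of 11 tested genes of the receptor and JAK-STAT3 pathway 6 fell and 2 rose (median log2 change -0.30, against 0.00 over all genes), and 3 fell when the mean of a gene's probes was taken. Over all genes 19% fell and 17.5% rose, shares beside which this and the later counts of lists stand. Stat3 had log2 signals of 9.58 and 9.57 at day 0 and 8.41 and 8.27 at day 2, a fall of 1.24 ± 0.10 (adjusted p = 1.36e-06). Stat5a, a related factor, fell by 1.22 ± 0.19, while another of its probes gave -0.05. Il6st, the receptor chain shared by the cytokine family, rose by 0.54 ± 0.10 and Pias3, a protein inhibitor of STAT3, by 0.58 ± 0.10. Lifr, the chain specific to LIF, was lower by 0.39 ± 0.11 (adjusted p = 0.0154), a call lost without replicate 2 of day 0 (adjusted p = 0.116) or without replicate 1 of day 2 (0.169), and with the mean of its probes (0.0684). In bulk RNA fewer cells of a type and less RNA per cell cannot be told apart, which applies to all changes given here.

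Of 21 tested genes listed as LIF and STAT3 targets 16 fell and 1 rose (median -0.96), beside 19% and 17.5% of all genes. By at least 2-fold 10 fell, beside 2.54% of all genes. Besides Socs3, the falls included Bcl6, a zinc finger repressor, from 7.48 and 7.46 to 5.33 and 5.31 (-2.15 ± 0.07). Klf5, a Krüppel-like factor that sustains self-renewal, went from 12.41 and 12.56 to 10.48 and 10.36 (-2.07 ± 0.09), and Tfcp2l1, a STAT3 target that can replace LIF when forced, from 11.51 and 11.66 to 9.79 and 9.63 (-1.87 ± 0.09). Both days were apart for all 3 genes, as for 70.8% of all genes. Myc, a further STAT3 target, had log2 signals of 5.17 and 5.24 at day 0 and 5.52 and 5.37 at day 2 and was not called (0.24, adjusted p = 0.118), except in the fit of the 6 PL2F8 arrays of days 0, 2 and 4 alone (0.26, adjusted p = 0.0473).

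Promoters of RefSeq (assembly GRCm38.p6, from 250 bases before to 50 after a start site, 300 in all) were searched on both strands for the letters bound by STAT dimers, TTCNNNGAA. Among the 15 fallen targets with a promoter in the table, 5 held a match (Socs3, Cish, Icam1, Sgk1 and Bcl6), beside 8.07% of the 10347 tested genes with a promoter. Of all 17 genes of the list with a promoter 5 held a match. The list was made of LIF and STAT3 targets, so its share is no test of a link between the falls and these letters. A match is a description of the letters and not a measured site. The 250 bases before the start are shown for Socs3, the target that fell most, and for Bcl6 at the most upstream of its start sites with a match, with the matched letters in capitals. The Socs3 stretch is chr11:117969367-117969616 and the Bcl6 stretch chr16:23988853-23989102, both on the minus strand and written 5′ to 3′.
Socs3: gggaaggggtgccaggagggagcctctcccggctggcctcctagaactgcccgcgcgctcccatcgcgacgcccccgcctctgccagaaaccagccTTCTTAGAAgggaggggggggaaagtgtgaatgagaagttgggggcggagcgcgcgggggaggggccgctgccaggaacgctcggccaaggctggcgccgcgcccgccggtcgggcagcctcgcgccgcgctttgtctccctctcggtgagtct
Bcl6: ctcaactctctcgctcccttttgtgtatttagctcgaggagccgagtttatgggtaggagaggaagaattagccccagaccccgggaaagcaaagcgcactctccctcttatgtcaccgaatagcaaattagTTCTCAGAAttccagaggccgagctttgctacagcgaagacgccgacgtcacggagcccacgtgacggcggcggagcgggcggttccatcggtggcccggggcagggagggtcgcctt

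Immediate early genes, which answer growth factors, serum and stress within minutes, were the group with the deepest single falls. Of 24 tested, 16 fell and 1 rose (median -0.92, or -0.88 with genes that sank to background at their bounds), and 12 fell by at least 2-fold. The shares over all genes were 19%, 17.5% and 2.54%. Fos, Egr1, Egr2, Ccn1 and Junb were given above. Dusp1, a phosphatase that switches off MAP kinases, fell by 0.79 ± 0.07, from 11.07 and 11.02 to 10.27 and 10.24. The CArG box is the element bound by serum response factor. A promoter match to it was present in 2 of 13 fallen genes of the list with a promoter (Egr2 and Zfp36). It was present in 3 of all 18 genes of the list with a promoter and in 1.74% of all tested genes. The 250 bases before the most upstream Egr2 start site, chr10:67537316-67537565 on the plus strand, are shown as an example of a fallen gene with a match, with the CArG box in capitals.
Egr2: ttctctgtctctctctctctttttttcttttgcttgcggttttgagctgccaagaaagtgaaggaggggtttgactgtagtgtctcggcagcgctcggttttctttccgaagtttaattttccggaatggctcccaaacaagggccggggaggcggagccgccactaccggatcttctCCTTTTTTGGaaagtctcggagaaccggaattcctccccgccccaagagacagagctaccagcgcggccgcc

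Genes that report or restrain ERK activity did not move as a group: of 14 tested 7 rose and 5 fell (median 0.14, which turned to -0.01 without the detection filter), and 4 rose with median scaling. Phlda1, induced by ERK, had log2 signals of 8.61 and 8.48 at day 0 and 6.95 and 7.04 at day 2, a fall of 1.56 ± 0.09. Etv4, an ETS factor downstream of FGF, fell by 0.99 ± 0.09, from 9.64 and 9.68 to 8.76 and 8.59. In the opposite direction, the FGF receptor gene Fgfr2 rose by 1.06 ± 0.09, with other probes at 0.09 and 0.18.

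The naive pluripotency programme was lower, where over all genes 19% fell, 17.5% rose and 2.54% fell by at least 2-fold. Of 27 tested naive genes 21 fell and 3 rose (median -0.71), 10 falls reaching 2-fold, and 1 rose without replicate 1 of day 0 or without replicate 1 of day 2. Klf4 had log2 signals of 10.82 and 10.82 at day 0 and 8.80 and 8.69 at day 2 (-2.08 ± 0.13, adjusted p = 1.27e-07), and Tbx3, a T-box factor downstream of LIF through PI3K, went from 10.23 and 10.28 to 8.35 and 8.18 (-2.0 ± 0.09, other probe -1.17). The estrogen-related receptor gene Esrrb went from 13.14 and 13.13 to 12.05 and 12.15 (-1.03 ± 0.10), although its other probe gave 0.20. Nanog, the homeodomain factor that stabilizes the naive state, went from 12.49 and 12.30 to 11.51 and 11.72 (-0.78 ± 0.10, other probe -1.54). Gbx2, a homeobox target of STAT3, fell by 1.13 ± 0.10, Klf2 by 0.62 ± 0.09 and Zfp42 (Rex1), a reporter of the naive state, by 0.57 ± 0.11. The falls of Klf2, Zfp42 and the brightest probe of Nanog were smaller than 2-fold. Their day 2 arrays lay below both day 0 arrays, and the days likewise did not overlap for 70.8% of all genes. Dppa3 (Stella), a maternal factor kept in naive cells, went the other way, from 5.08 and 4.78 to 5.90 and 6.01 (1.03 ± 0.13).

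Among 17 tested core pluripotency genes, shared by naive and primed cells, 10 rose and 2 fell (median 0.40), beside 17.5% and 19% of all genes. With median scaling 6 rose and 3 fell (median 0.21), and none fell without replicate 2 of day 0 or without either day 2 array. Pou5f1 changed by 0.01 ± 0.11 (adjusted p = 0.963), with overlapping days. Sox2 had log2 signals of 9.68 and 9.60 at day 0 and 9.39 and 9.60 at day 2 (-0.15 ± 0.10, adjusted p = 0.295), a change that was called with median scaling (-0.36, adjusted p = 0.0269). Zscan10, a zinc finger partner of Oct4 and Sox2, rose by 1.00 ± 0.08, Zfp281, a zinc finger factor of the exit from naive pluripotency, by 0.81 ± 0.07, and Utf1, a chromatin protein of ES cells, by 0.71 ± 0.08. Lin28a, which blocks let-7 maturation, rose by 0.83 ± 0.13, but its other probes gave -0.63 to 0.29 and the mean of its probes was not called (0.15, adjusted p = 0.203).

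Genes of the formative and primed epiblast rose with the highest median of the 33 lists. Of 20 tested 17 rose and none fell, and 14 of the rises reached 2-fold (median 1.90), beside 17.5%, 19% and 2.51% of all genes. Otx2, the homeodomain factor that directs Oct4 to epiblast enhancers, had log2 signals of 9.57 and 9.53 at day 0 and 11.99 and 12.03 at day 2 (2.46 ± 0.08, adjusted p = 7.38e-10). Dnmt3b, a de novo DNA methyltransferase of the epiblast, went from 11.05 and 11.15 to 13.72 and 13.53 (2.52 ± 0.08, other probe 2.39). Cldn6, a claudin of embryonic epithelia, rose by 1.82 ± 0.09 and Lef1, a nuclear partner of beta-catenin, by 2.12 ± 0.15. All day 2 values of these genes stood above all day 0 values, where the days did not overlap for 70.8% of all genes. Among 10 tested genes of DNA methylation 3 rose and 2 fell (median -0.05), of which 1 rose with median scaling and none fell without replicate 1 of day 0. Dnmt3l, the cofactor of the de novo enzymes, had log2 signals of 12.67 and 12.63 at day 0 and 12.53 and 12.43 at day 2 (-0.17 ± 0.07, adjusted p = 0.0796), and was called lower in the authors' matrix (-0.20, adjusted p = 0.0114) and as the mean of its probes (-0.21, adjusted p = 0.0254). Tet2, which oxidizes methylcytosine, was lower by 0.45 ± 0.10, a call lost without replicate 1 of day 0 (adjusted p = 0.0617).

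Of 18 tested genes of the Nodal pathway 8 rose and 4 fell (median 0.04, or -0.04 with median scaling), beside 17.5% and 19% of all genes. Nodal, the TGF-beta ligand of the epiblast, had log2 signals of 9.82 and 9.94 at day 0 and 10.55 and 10.57 at day 2 (0.68 ± 0.08, other probe 0.62), next to the far larger rises of its targets Lefty1 and Lefty2. In the BMP group, whose ligands support self-renewal together with LIF, 6 of 14 fell and none rose (median -0.10). Bmp4 went from 9.62 and 9.63 to 8.23 and 8.32 (-1.35 ± 0.09), the BMP-induced inhibitor of differentiation Id1 fell by 0.71 ± 0.08, and the transducer Smad1 by 0.56 ± 0.09, which was not called as the mean of its probes (-0.26, adjusted p = 0.0635). Bmp7, a further ligand, was above background on both day 0 arrays and on 1 of the 2 day 2 arrays, and its change was -1.33 ± 0.14, a value that includes the undetected array, or -0.43 in the authors' matrix. Id3, a further Id gene, changed by 0.30 ± 0.17 and was not called (adjusted p = 0.187), except when only the compared arrays were fitted (0.34, adjusted p = 0.0491).

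Of 20 tested Wnt response genes 8 rose and 4 fell (median 0.02), and 7 fell without the dim PL2F8 arrays of days 6 and 8. For comparison, 17.5% of all genes rose and 19% fell. The Frizzled receptors moved apart: Fzd7 went from 8.40 and 8.47 to 10.21 and 10.26 (1.80 ± 0.08), Fzd2 rose by 1.05 ± 0.10, and Fzd5 went from 11.25 and 11.26 to 9.82 and 9.83 (-1.43 ± 0.06). Sp5, a direct Wnt target, sank to background on both day 2 arrays (at least 1.46-fold lower). Primitive streak and mesendoderm genes were mostly at or near background: 7 of 17 were detected on none of the 4 arrays, 4 rose and 2 fell (median -0.05), or 4 fell without the dim arrays. T (Brachyury), the streak T-box factor, was above background on 1 of the 4 arrays and was not called (-0.23, adjusted p = 0.0916, or 0.0491 without the dim arrays), and Eomes had log2 signals of 5.02 and 5.14 at day 0 and 5.33 and 5.36 at day 2 (0.26 ± 0.19, adjusted p = 0.336, or 0.0328 with only the compared arrays). Fgf17, a growth factor of the FGF8 subfamily, rose from 7.92 and 7.79 to 8.91 and 8.87 (1.04 ± 0.09), and Fgf8 was at least 1.81-fold higher.

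Primitive and visceral endoderm genes were lower more often than higher: 13 of 29 fell and 4 rose (median -0.26, or -0.13 with genes at background at their bounds). The shares over all genes were 19% and 17.5%. Lama1, a chain of the basement membrane laminin, went from 9.83 and 9.80 to 7.45 and 7.47 (-2.35 ± 0.07), Col4a1 from 10.19 and 10.21 to 8.40 and 8.46 (-1.77 ± 0.07) and Col4a2, its partner collagen chain, from 8.81 and 8.84 to 6.96 and 7.02 (-1.84 ± 0.09). The arrays of both days were apart for all 3 genes, as for 70.8% of all genes. Gata6, the GATA factor that specifies primitive endoderm, fell by 1.11 ± 0.08. Sox17, a further endoderm factor, was above background on 1 of the 2 day 2 arrays and changed by -0.85 ± 0.19, with its other probe at -0.44. Sox21, a Sox factor of the early embryo, fell by 1.71 ± 0.11, with another probe at -0.14. Ttr, transthyretin made by visceral endoderm, was above background at day 2 alone (6.31 and 6.33, at least 3.03-fold higher), and Apoa1, an apolipoprotein of the same tissue, was at least 1.33-fold higher. The summed signal of the list was 8802 and 9109 at day 0 and 6513 and 6365 at day 2.

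Trophectoderm and keratin genes showed 10 falls and 1 rise among 17 (median -0.54, or -0.43 with bounds), beside 19% and 17.5% of all genes. The keratins Krt8, Krt42 and Krt19 fell by 1.59 ± 0.08, 1.99 ± 0.12 and 1.30 ± 0.09, Krt8 from 9.56 and 9.58 to 8.00 and 7.96. Cdx2, the factor that defines trophectoderm, was above background on none of the 4 arrays. The 9 tested ectoderm and neural genes included 3 falls and no rise (median -0.17): Mapt, the adhesion molecule Ncam1 (-1.04 ± 0.11, other probe -0.35) and the stathmin Stmn2 (-0.44 ± 0.10). The proneural factor Neurog2 was above background on 1 of the 4 arrays.

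Mesenchymal and actin cytoskeleton genes were lower: of 29 tested 19 fell and 1 rose (median -0.56, or -0.53 with bounds), 10 falls reaching 2-fold. Over all genes 19% fell, 17.5% rose and 2.54% fell by at least 2-fold. S100a6 had log2 signals of 10.02 and 9.96 at day 0 and 6.97 and 7.20 at day 2. S100a11, a related calcium-binding protein, went from 11.71 and 11.61 to 10.20 and 10.13 (-1.50 ± 0.08), and Cav1, the coat protein of caveolae, was at least 2.59-fold lower. Markers of feeder fibroblasts moved with them: 10 of 14 fell and 3 rose (median -0.70, or -0.49 with bounds; none rose with median scaling), and their summed signal was 4309 and 4402 at day 0 against 3524 and 3412 at day 2. Timp1, an inhibitor of metalloproteinases, fell by 1.53 ± 0.08, the matrix proteoglycan Dcn by 1.30 ± 0.14 (other probe -0.56), the matrix protein Fbln2 by 1.17 ± 0.12 and Thy1, a surface glycoprotein, by 0.95 ± 0.10. Col1a1, the chain of type I collagen that fibroblasts secrete in bulk, had log2 signals of 5.11 and 5.12 at day 0 and was at background at day 2 (at least 1.30-fold lower, adjusted p = 0.0161), a call lost without either day 0 array or without replicate 1 of day 2 (adjusted p from 0.0669 to 0.0898) and in the authors' matrix (0.0929). The part of fibroblasts in the mesenchymal falls was not tested. Epithelial junction genes showed 6 rises and no fall among 18 (median 0.20), and 5 rises and 2 falls with median scaling (median 0.03). Esrp1, the splicing regulator of epithelial cells, went from 7.39 and 7.41 to 10.21 and 9.92 (2.67 ± 0.09), Cldn3 rose by 1.03 ± 0.09 and Cdh1 (E-cadherin) by 0.65 ± 0.10.

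Genes normally confined to the germ line fell without a rise (9 of 16, median -0.63), where 19% of all genes fell and 17.5% rose. Dazl, an RNA-binding protein of germ cells, went from 9.77 and 9.92 to 8.40 and 8.21 (-1.54 ± 0.10), the TFIID subunit Taf7l fell by 1.16 ± 0.09, the homeobox gene Rhox9 by 0.87 ± 0.08 and the piRNA pathway gene Tdrkh by 0.86 ± 0.09. Genes of the oocyte and of the 2-cell-like state, a rare state of ES cultures, showed 9 falls and 1 rise among 13 (median -0.51). Khdc3, a subunit of the maternal complex, fell by 1.62 ± 0.12, and Zscan4c, a marker of the 2-cell-like state, went from 9.35 and 9.31 to 8.50 and 8.45 (-0.85 ± 0.08).

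Cholesterol synthesis and uptake genes rose: 16 of 23 were higher and none lower (median 0.57), beside 17.5% and 19% of all genes. Cyp51, the lanosterol demethylase, had log2 signals of 7.54 and 7.63 at day 0 and 8.71 and 8.56 at day 2 (1.05 ± 0.09). Both day 2 arrays lay above both day 0 arrays, where the days did not overlap for 70.8% of all genes. The letters TCACNCCAC of the sterol response element were in none of the 16 promoters of the list in the table and in 1.44% of all tested genes.

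Targets of ATF4, the factor that answers amino acid shortage, were lower: 12 of 22 fell and 3 rose (median -0.32). Over all genes 19% fell and 17.5% rose. Chac1, which degrades glutathione, had log2 signals of 10.45 and 10.51 at day 0 and 9.10 and 9.06 at day 2 (-1.40 ± 0.09). Nupr1, a small stress-induced chromatin protein, went from 10.14 and 10.06 to 9.03 and 9.13 (-1.02 ± 0.08), and Mthfd2, the mitochondrial folate enzyme, fell by 0.92 ± 0.07. Slc7a3, a cationic amino acid transporter, rose by 1.15 ± 0.08 (other probe 0.36). Of the 12 fallen genes with a promoter there, 7 held the letters TGATGNAA of the ATF4 element on either strand. Of all 20 genes of the list with a promoter 9 held them, beside 2.84% of all tested genes. The list was made of ATF4 targets, so its share is no test of a link between the falls and the element. The 250 bases before the start are shown for Chac1 (chr2:119350992-119351241, plus strand) and Nupr1 (chr7:126625471-126625720, minus strand), the fallen genes of the list named here that held it, with the element in capitals, which stands in both as its reverse complement.
Chac1: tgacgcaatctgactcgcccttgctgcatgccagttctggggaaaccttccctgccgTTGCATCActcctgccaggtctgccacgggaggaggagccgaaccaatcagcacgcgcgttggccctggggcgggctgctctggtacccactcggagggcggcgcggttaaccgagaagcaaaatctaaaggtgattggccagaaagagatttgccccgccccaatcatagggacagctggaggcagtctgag
Nupr1: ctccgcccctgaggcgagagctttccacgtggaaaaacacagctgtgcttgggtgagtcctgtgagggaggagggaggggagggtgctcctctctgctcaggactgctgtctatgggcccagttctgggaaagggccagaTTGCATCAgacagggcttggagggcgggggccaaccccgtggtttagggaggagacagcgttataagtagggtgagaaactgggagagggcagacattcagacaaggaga

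The lists of general cell functions had medians from -0.07 to 0.23, or from -0.29 to 0.11 with median scaling, and the counts of calls in several of them depended on the settings. Their counts stand beside 17.5% of all genes that rose and 19% that fell, and several lie near these shares. Of 25 glycolysis and hypoxia genes 4 rose (2 with median scaling) and 7 fell (median -0.03), with Slc16a3, the lactate exporter, higher by 1.14 ± 0.10 (other probe 0.23), the HIF hydroxylase Egln3 higher by 1.00 ± 0.10 (other probes 0.38 and 0.51), Hk1 (hexokinase) lower by 0.86 ± 0.12 and Vegfa lower by 0.70 ± 0.08. Of 23 oxidative phosphorylation genes 1 rose and 5 fell (median -0.06), or 2 to 3 fell when any 1 of the 4 arrays was left out, the respiratory chain subunits Cox7a2 and Cox5a changing by 0.49 ± 0.07 and -0.47 ± 0.08, the first of which was not called with median scaling (0.27, adjusted p = 0.0728). Of 21 ribosomal protein genes 2 rose and 2 fell (median 0.07). None of them rose with median scaling, none fell without replicate 2 of day 0 or of day 2, 4 rose with the mean of probes, 4 fell in the authors' matrix, and the call of Rps6, the smallest of these (-0.20), was lost in 9 of the alternative settings. Of 27 DNA replication genes 5 rose and 2 fell (median 0.12, or -0.06 with median scaling), with the salvage enzyme Tk1 lower by 0.60 ± 0.10. None of the replication genes rose with median scaling, 9 rose in the authors' matrix, 2 rose without replicate 1 of day 2, and 3 without replicate 2 of day 0 or of day 2. Of 19 mitotic genes none rose and 3 fell (median -0.07), or 9 fell with median scaling (median -0.29), 3 rose in the authors' matrix and 2 with the mean of probes, the largest of these falls being that of the kinesin Kif23 (-0.59 ± 0.08). MYC and ribosome biogenesis genes had 7 rises and 1 fall among 18 (median 0.23), led by Pes1 (0.95 ± 0.13) and Nop56 (0.71 ± 0.07), both needed to make ribosomes. Of these 18 genes 2 rose with median scaling and 4 without replicate 1 of day 0 or without replicate 1 of day 2. Of 19 p53 targets 7 rose and 3 fell (median 0.20). With median scaling 4 rose and 5 fell (median -0.02), and 4 rose without replicate 2 of day 0. The apoptosis genes Bbc3 (Puma) and Bax rose by 0.74 ± 0.08 (other probes 0.10 and 0.48) and 0.55 ± 0.11, and the death receptor gene Fas fell by 0.61 ± 0.12. Gapdh changed by 0.01 ± 0.07 and Actb by -0.37 ± 0.09, with other Actb probes from -0.35 to 0.21 and no call for the mean of its probes (-0.06, adjusted p = 0.639).

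Interferon and antigen presentation genes were higher: 11 of 19 rose and 1 fell (median 0.43), or 9 and 4 with median scaling (median 0.27). For comparison, 17.5% of all genes rose and 19% fell. Irf1, an interferon regulatory factor, had log2 signals of 8.99 and 8.98 at day 0 and 11.29 and 11.38 at day 2 (2.35 ± 0.09, other probes 1.59 to 2.48). Psmb8 and Psmb10, subunits of the immunoproteasome, were at least 4.49-fold higher (other probe 0.24) and higher by 1.11 ± 0.11, and Igtp, an interferon-induced GTPase, rose by 1.68 ± 0.10. Of 22 heat shock and unfolded protein genes 6 rose and 5 fell (median 0.05). With median scaling 2 rose and 7 fell (median -0.08), and 3 fell without replicate 2 of day 2 or with the mean of probes. The small heat shock genes Hspb8 and Hspb1 fell by 1.48 ± 0.08 and 0.85 ± 0.15, while Xbp1, a factor of the unfolded protein response, and its target Hyou1 rose by 0.61 ± 0.08 and 0.53 ± 0.09.

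Of 17 imprinted genes 7 rose and 6 fell (median 0.09), beside 17.5% and 19% of all genes, and both imprinted clusters named here held falls. The number of rises was 3 with median scaling and 4 without either day 0 array or without replicate 2 of day 2. Igf2, the fetal growth factor, had log2 signals of 10.02 and 10.01 at day 0 and 7.64 and 7.45 at day 2 (-2.47 ± 0.09), and H19, the noncoding RNA beside it, went from 10.48 and 10.58 to 9.28 and 9.23 (-1.28 ± 0.08). Dlk1, a Notch-related membrane protein, went from 9.0 and 9.05 to 7.40 and 7.49 (-1.58 ± 0.07), whereas Meg3, the maternal noncoding RNA of the same cluster, rose by 1.69 ± 0.09, with other probes from -0.06 to 0.56. Of 22 Polycomb and chromatin genes 8 rose and 2 fell (median 0.04). With median scaling 5 rose and 6 fell (median -0.14), and 4 fell without replicate 1 of day 2. The rises included the demethylase Kdm4c (0.81 ± 0.13), the Polycomb subunit Cbx7 (0.58 ± 0.09) and the remodeller subunits Arid1a (0.55 ± 0.08) and Smarcc1 (0.50 ± 0.08), which was not called with median scaling (0.30, adjusted p = 0.0639).

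**Figure D2:**
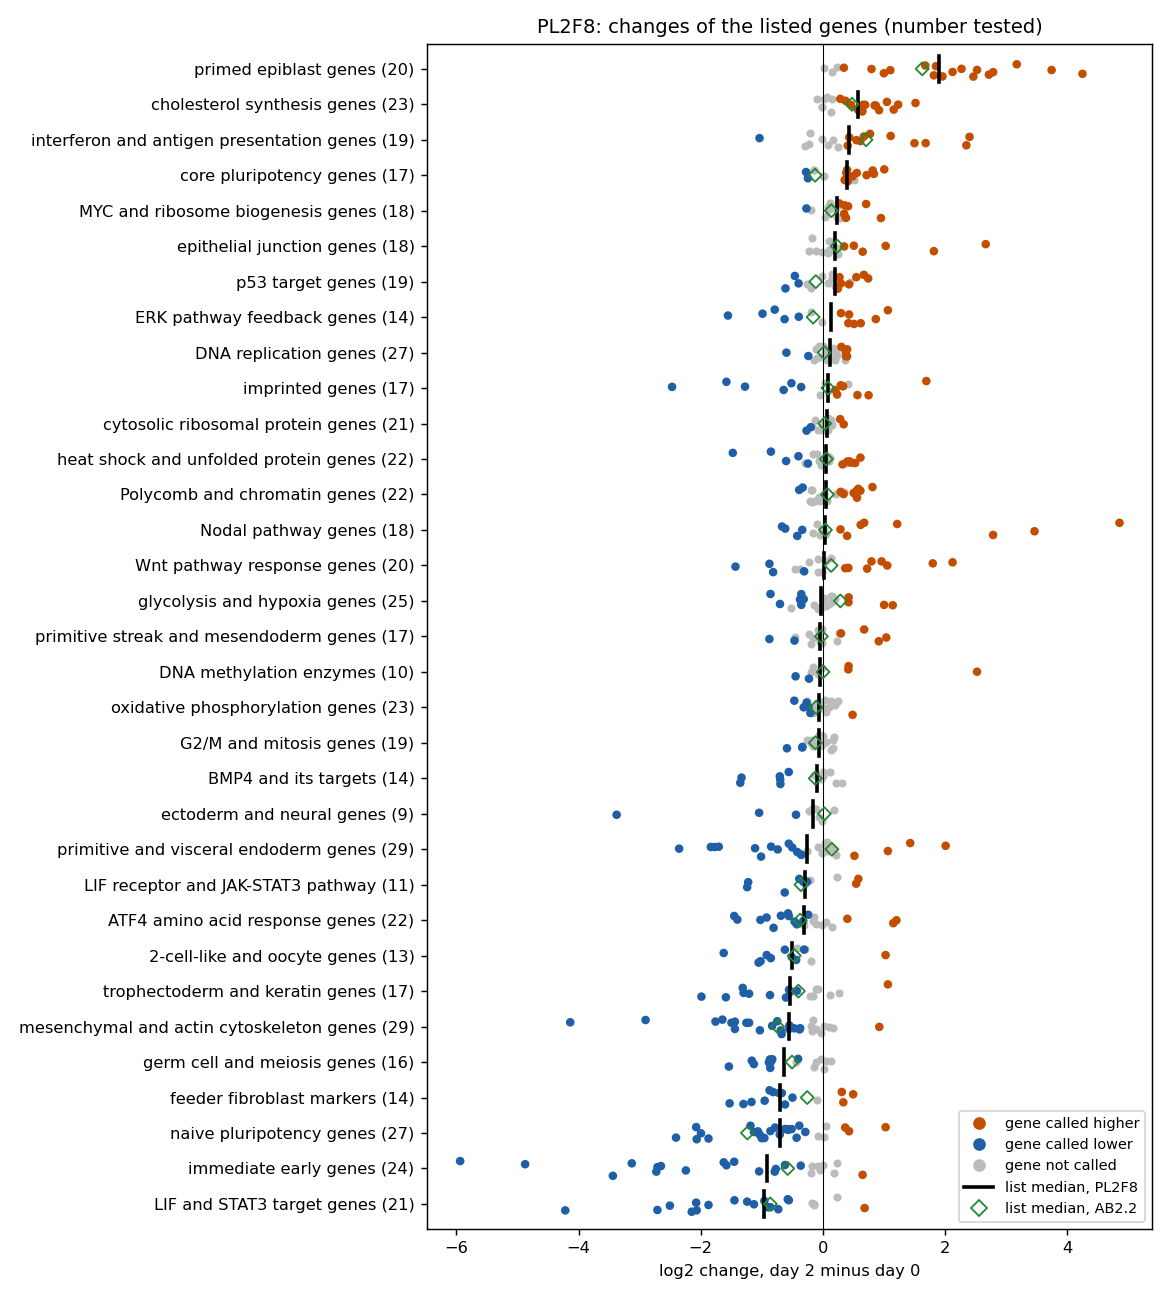
Log2 change from day 0 to day 2 in PL2F8 (horizontal axis) of each tested gene of the 33 lists, with the number of genes tested in brackets. Orange points rose and blue points fell at an adjusted p below 0.05, grey points were not called, the black bar is the median of the list in PL2F8 and the green diamond its median in AB2.2. The primed epiblast list has the highest median (1.90) and the list of LIF and STAT3 targets the lowest (-0.96), just below the immediate early genes (-0.92), which were the lowest in 5 of the alternative settings.

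Set beside AB2.2, most genes that changed by at least 2-fold in PL2F8 changed in the same direction, and 10.1% of all genes had a called difference between the changes of the lines. AB2.2 had 2818 rises (17.5%) and 2780 falls (17.3%) from day 0 to day 2, and the changes of both lines correlated across the 16085 genes with Pearson's r of 0.742 and Spearman's rho of 0.621, a description of these arrays since genes are not independent replicates. Of the 811 genes that moved by at least 2-fold in PL2F8, 787 had the same sign in AB2.2, 735 were called there in the same direction and 7 in the opposite one. The test of the difference itself, the PL2F8 change minus the AB2.2 change over 8 arrays, called 1629 genes, 662 of them with the higher change in PL2F8 (4.12%) and 967 with the lower (6.01%), and 236 genes (1.47%) differed by at least 2-fold. With median scaling 383 were higher and 1230 lower, and leaving out 1 array at a time left 370 to 441 higher and 600 to 707 lower.

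**Figure D3:**
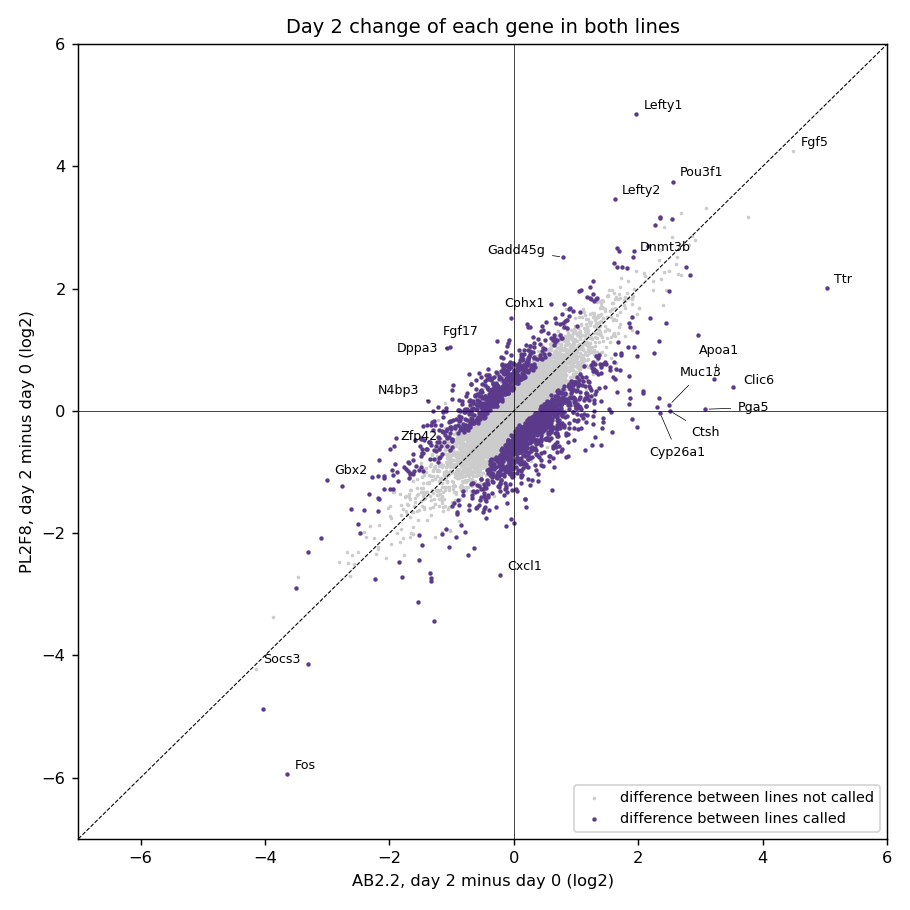
Log2 change from day 0 to day 2 of each of the 16085 tested genes in AB2.2 (horizontal axis) and in PL2F8 (vertical axis). Purple points are the 1629 genes whose change differed between lines at an adjusted p below 0.05, grey points are the others, and the dashed line marks equal change. Fgf5 and Socs3 lie at the dashed line, Lefty1 and Gadd45g above it, and Ttr, Apoa1, Clic6 and Pga5 to the right of it.

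Naive pluripotency genes had higher changes in PL2F8 than in AB2.2 wherever the lines differed. Of the 27 naive pluripotency genes 13 had a called difference, in each case with the higher change in PL2F8 (median change -0.71 in PL2F8 and -1.24 in AB2.2). Over all genes 4.12% had a called difference with the higher change in PL2F8. Gbx2 had AB2.2 log2 signals of 11.64 and 11.59 at day 0 and 8.67 and 8.56 at day 2, a change of -3.00 beside the -1.13 of PL2F8 (difference 1.87 ± 0.15, adjusted p = 1.16e-05). Zfp42 changed by -1.93 in AB2.2 and -0.57 in PL2F8 (difference 1.36 ± 0.15), and Klf4 by -3.10 and -2.08 (difference 1.02 ± 0.18). Dppa3 started at 7.99 and 7.84 in AB2.2, well above the 5.08 and 4.78 of PL2F8, and fell by 1.07 there, so that the lines moved in opposite directions (difference 2.10 ± 0.18). For Nanog the difference was not called (0.45 ± 0.15, adjusted p = 0.0726). Core pluripotency genes had 9 called differences of 17, all with the higher change in PL2F8 (median 0.40 in PL2F8 and -0.13 in AB2.2), among them Utf1, which had log2 signals of 10.87 and 10.92 at day 0 and 10.86 and 11.02 at day 2 in AB2.2 (difference 0.67 ± 0.12).

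Lefty1 and Lefty2 rose by more in PL2F8, from a lower start. Lefty1 began at 9.99 and 9.83 in AB2.2 and reached 11.91 and 11.84, a change of 1.96 against 4.86 in PL2F8 (difference 2.89 ± 0.12, adjusted p = 7.52e-08). Lefty2 changed by 1.62 in AB2.2 from 8.39 and 8.31, and by 3.46 in PL2F8 from 5.91 and 6.12 (difference 1.85 ± 0.18). The lines thus lay further apart at day 0 than at day 2 for both genes. Pou3f1 had a difference of 1.19 ± 0.16 and Dnmt3b of 0.61 ± 0.12, while Fgf5 (-0.24 ± 0.22, adjusted p = 0.577) and Otx2 (0.13 ± 0.12, adjusted p = 0.561) were not called. Gadd45g, a stress and growth arrest gene, went from 7.05 and 7.19 to 9.68 and 9.58 in PL2F8 and from 9.53 and 9.71 to 10.45 and 10.38 in AB2.2 (difference 1.72 ± 0.12). Fgf17 rose in PL2F8 and went from 9.08 and 9.19 to 8.12 and 8.09 in AB2.2 (difference 2.07 ± 0.12). Cphx1, a homeobox gene of the early embryo, was at background in PL2F8 at day 0 and reached 6.08 and 5.80 (difference 1.56 ± 0.16), and N4bp3 fell in AB2.2 by 1.37 and had a change of 0.16 in PL2F8 that was not called (difference 1.54 ± 0.26).

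Endoderm genes had lower changes in PL2F8 than in AB2.2: 16 of 29 had a called difference, each with the lower change in PL2F8 (median change -0.26 in PL2F8 and 0.15 in AB2.2). The share of all genes called with the lower change in PL2F8 was 6.01%. Ttr was at background in both lines at day 0 and reached 9.39 and 9.55 in AB2.2 beside 6.31 and 6.33 in PL2F8 (difference -3.02 ± 0.23, adjusted p = 9.34e-06). Apoa1 reached 8.05 and 8.04 in AB2.2 beside 5.16 and 5.09 (difference -2.70 ± 0.15). Lama1, Col4a1 and Col4a2, which fell in PL2F8, changed by -0.73, -0.04 and 0.01 in AB2.2 (differences -1.62, -1.73 and -1.84), where the last of these had adjusted p = 0.97 in that line. For Ttr and Apoa1 the difference uses day 0 signal that was at background in 1 line or in both.

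Genes outside the endoderm list were also among the 8 lowest differences. Ctsh, a lysosomal cathepsin, had log2 signals of 7.24 and 7.06 at day 0 and 7.14 and 7.16 at day 2 in PL2F8 against 7.30 and 7.50 and then 9.87 and 9.94 in AB2.2 (difference -2.50 ± 0.12), and Cyp26a1, the retinoic acid hydroxylase, had a difference of -2.38 ± 0.18. Clic6, a chloride channel protein, and Pga5, a pepsinogen, rose in AB2.2 by 3.52 and 3.08 and had changes of 0.38 and 0.03 in PL2F8 that were not called (differences -3.13 ± 0.21 and -3.05 ± 0.10). The PL2F8 rise of Clic6 was called in 4 of the alternative settings, with changes of 0.38 to 0.54 and adjusted p from 0.0297 to 0.0479. Muc13, a membrane mucin that was above background on 1 of the 4 PL2F8 arrays, had a difference of -2.40 ± 0.24 that did not pass when probes were filtered on the 4 PL2F8 arrays and another probe stood for the gene (-0.62, adjusted p = 0.0772).

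Of the 24 immediate early genes 11 had a called difference with the lower change in PL2F8 and 3 with the higher. Over all genes these shares were 6.01% and 4.12%. Fos began at 11.84 and 11.87 in PL2F8 and at 9.66 and 9.68 in AB2.2 and lay at 6.03 and 6.03 in AB2.2 at day 2, close to the 6.06 and 5.77 of PL2F8 (difference -2.30 ± 0.14, adjusted p = 2.41e-06). Egr1 (difference -0.85 ± 0.13) and Egr2 (-2.15 ± 0.21) showed the same order at day 0, with AB2.2 at 12.33 and 12.30 and at 6.10 and 5.72. Cxcl1, a neutrophil chemokine induced by NF-kB, was at 8.16 and 8.33 in PL2F8 at day 0 and at 5.61 and 5.50 at day 2, and was above background on none of the 4 AB2.2 arrays (difference -2.47 ± 0.21). Socs3 and Bcl6 had differences that were not called (-0.07 ± 0.14, adjusted p = 0.832, and -0.31 ± 0.10, adjusted p = 0.0831). Of the 21 LIF and STAT3 targets 4 had a called difference with the higher and 3 with the lower change in PL2F8. The shares over all genes were 4.12% and 6.01%. Dlk1 fell in PL2F8 from 9.0 and 9.05 while AB2.2 began at 7.67 and 7.66 and lay at 7.88 and 7.83 at day 2 (difference -1.77 ± 0.10), and among the 17 imprinted genes 4 had the lower change in PL2F8 and none the higher.

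**Figure D4:**
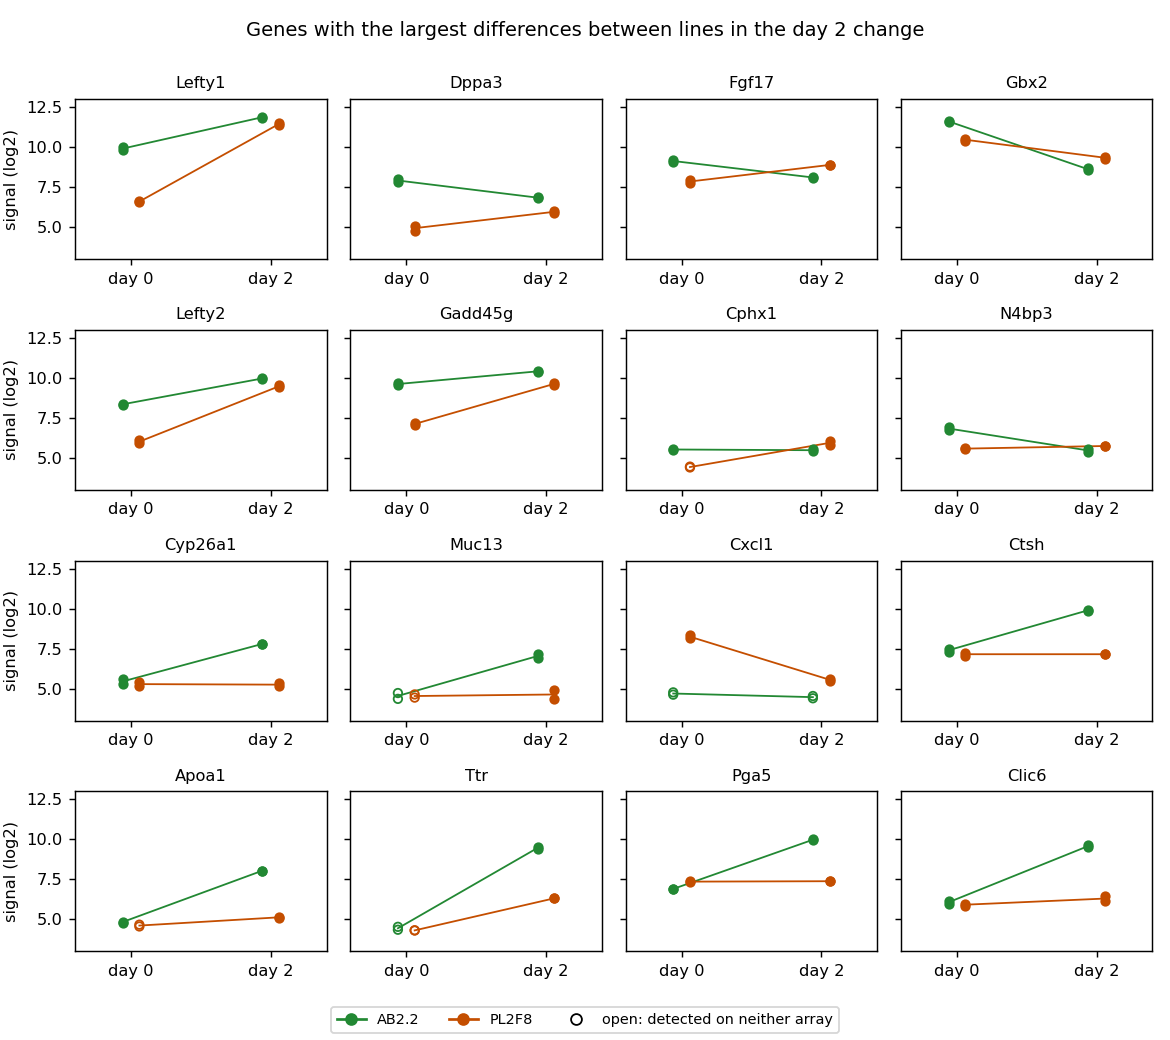
Normalized log2 signal (vertical axis) at day 0 and day 2 in AB2.2 (green) and PL2F8 (orange) for the 16 genes with the highest and lowest called differences between lines in the day 2 change, each circle 1 array and lines joining group means. Open circles mark a line and day with neither array above background. Lefty1, Lefty2 and Gadd45g lie further apart between lines at day 0 than at day 2, and Ttr, Apoa1, Ctsh, Pga5 and Clic6 lie further apart at day 2.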

How the data were processed

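Total RNA of the lines PL2F8 and AB2.2 was extracted with QIAGEN RNeasy reagents and checked on an Agilent Bioanalyser, per the labels' protocols. The deposited probe table held, per the file headers, an average signal (a raw intensity) and a detection p-value of 45281 probes on every array. In 445 lines (0.98%) the fields were shifted, and these were left out. The authors' deposited series matrix held normalized intensity under gene names, and recomputing gave its values as quantile-normalized averages of same-named probes, not corrected for background. Probes were named by matching values across the 18 arrays: 30475 of its 30848 lines were matched, 21609 by 1 probe and 8866 by a mean of neighbouring probes, 54 of these with more than 1 solution. Names were updated with the platform annotation and RefSeq symbols, and 8449 stayed as deposited. Software versions and scan batches of the authors are not given in the sources used here.

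From there the signal was background corrected with the normal-exponential model of limma 3.58.1 (R 4.3.3), with the negative controls derived from the detection column and an offset of 16, followed by quantile normalization on the log2 scale. Probes with a detection p below 0.05 on at least 2 of the 18 arrays were kept (23879), and each gene took its probe of the highest mean signal. A group-means model over all 18 arrays (8 residual degrees of freedom, 4.12 prior) gave moderated tests, adjusted by Benjamini-Hochberg over all 16085 genes, with calls below 0.05. A gene at background on both arrays of its lower day was given as "at least" the fold from the lowest detected signal of those arrays (4.71 to 4.75 on the log2 scale), or from its own signal if higher. On simulated data the fit recovered 60% of changes of 0.5 and 92% of changes of 1 (log2) between days, and 19% and 76% between lines. There 100 of the 16085 genes were changed by each size. In the real arrays 36.5% of genes were called between days, so these rates need not hold for them. Replicate numbers were not used to pair the arrays. Same-numbered PL2F8 arrays of days 0 and 2 had deviations correlated at -0.00923, and the labels do not say whether they belong together.

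The comparison and the 33 gene lists (740 entries, 708 on the array, 596 genes tested) were chosen with earlier results of these data known. Named were the 12 highest and 12 lowest called changes, the 4 genes of smallest p in each list, a set of marker genes, and the 8 highest and 8 lowest called differences between lines. Some genes that this rule names are not reported here. Single further genes, such as Zfp36, Cish, Icam1, Sgk1 and Dppa4, were named after their values were seen. Prdm14, Dnmt3a and Mycn did not pass the detection filter. Alternatives were median scaling, no background correction, the authors' matrix, other filters, the mean of probes, fewer arrays, a replicate block and leaving out each array.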

Additional observations from a re-analysis of the deposited data

Results flagged for a closer look

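For 31 named genes the change from day 0 to day 2 differed between PL2F8 and AB2.2 in the limma test of the difference itself, by at least 2-fold. Each value is the PL2F8 change minus the AB2.2 change on the log2 scale. The higher change was in PL2F8 for Lefty1 (2.89), Dppa3 (2.10), Fgf17 (2.07), Gbx2 (1.87), Lefty2 (1.85), Gadd45g (1.72), Cphx1 (1.56), N4bp3 (1.54), Zfp42 (1.36), Pou3f1 (1.19), Stmn2 (1.05), Sp5 (1.04), Klf4 (1.02) and Esrp1 (1.01). The lower change was in PL2F8 for Clic6 (-3.13), Pga5 (-3.05), Ttr (-3.02), Apoa1 (-2.70), Ctsh (-2.50), Cxcl1 (-2.47), Muc13 (-2.40), Cyp26a1 (-2.38), Fos (-2.30), Egr2 (-2.15), Dcn (-1.91), Col4a2 (-1.84), Dlk1 (-1.77), Col4a1 (-1.73), Lama1 (-1.62), Ccn1 (-1.58) and Htra1 (-1.44). For Cphx1, Sp5, Ttr, Apoa1, Muc13, Egr2, Ccn1, Dcn and Cxcl1 the value rests in part on arrays with signal not above background, and what lies behind these differences was not tested.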

How the results depend on the processing

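The 811 genes with a called change of at least 2-fold from day 0 to day 2 were called in the same direction under every alternative that kept all 4 PL2F8 arrays, and 808 to 809 of them when 1 of these arrays was left out. Median scaling moved the counts between days most, to 1777 higher and 4782 lower genes (from 2815 and 3054), and gave 383 genes with the higher change in PL2F8 than in AB2.2 (from 662). Leaving out each array in turn gave 2091 to 2191 higher and 2211 to 2329 lower genes between days, and 370 to 441 higher and 600 to 707 lower between lines, where fewer arrays also leave fewer residual degrees of freedom. The count with the higher change in PL2F8 fell by over 1.5 times whichever of the 8 arrays was left out, and the count with the lower change did so without either PL2F8 array of day 0 (612 and 600) or without PL2F8 replicate 2 of day 2 (618). Because the replicate numbers were not used to pair the arrays, the fit with the replicate block is given only here. It called 2729 higher and 2946 lower genes between days and 530 and 827 between lines, and the call of Rps6 was lost (adjusted p = 0.0617). Without the 3 dim PL2F8 arrays of days 6 and 8 the counts were 3183 and 3417 between days. Of 2302 values for the 165 named genes under an alternative, 2243 kept direction and side of the threshold, 46 lost the call, 13 gained it and 0 turned round. Without background correction genes near background changed less, Fgf5 by 3.21 in place of 4.25 and Fos by -5.33 in place of -5.94, and in the authors' matrix, which averages probes, Igfbp7 changed by -1.31, Lef1 by 0.64, Bmp7 by -0.43 and Slc16a3 by 0.46. The restriction to the 6 PL2F8 arrays of days 0, 2 and 4, chosen after seeing the data, called 3068 higher and 3278 lower genes. Signal over background limits 1359 genes that were detected on none of the 4 arrays.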

Other observations

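The PL2F8 arrays of day 4 show where some day 2 changes stood after 2 further days, given as values with no test. Before normalization these arrays had mean signals of 283.6 and 286, dimmer than the PL2F8 arrays of days 0 and 2 (331.9 to 396.1). Several genes that had fallen at day 2 lay nearer to their day 0 signal at day 4. Nanog had log2 signals of 12.30 and 12.09 at day 4, beside 12.49 and 12.30 at day 0 and 11.51 and 11.72 at day 2. Stat3 was at 9.26 and 9.16 at day 4 after 8.41 and 8.27, and the keratin gene Krt8 at 9.25 and 9.37 after 8.00 and 7.96. H19 passed its day 0 signal, with 11.15 and 11.09 at day 4 against 10.48 and 10.58. Bmp7, above background on 1 of 2 arrays at day 2, was at 6.52 and 6.75 at day 4.

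Other falls went on or were kept. Gbx2 lay at 7.03 and 7.17 at day 4, well below the 9.29 and 9.39 of day 2, Zfp42 at 9.89 and 9.87 after 11.32 and 11.27, and Etv4 at 6.64 and 6.79 after 8.76 and 8.59. Chac1 lay at 7.67 and 7.54 after 9.10 and 9.06. Among the rises, Fgf5 was lower at day 4 (6.73 and 6.43) than at day 2 (8.66 and 8.50), as were Lefty1 (9.97 and 10.06 after 11.39 and 11.52) and Lefty2 (7.87 and 7.87 after 9.55 and 9.41). Car4 (9.98 and 10.11 after 9.32 and 9.27), Gadd45g (10.46 and 10.40 after 9.68 and 9.58) and Cldn6 (11.15 and 11.02 after 10.19 and 10.40) were higher at day 4 than at day 2. These genes were picked after their values were seen.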
